A study of Mus musculus with 19 samples.

Results

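The microRNAs (miRNAs) held by Ago2 in Gad2 cells of the mouse neocortex were compared with those held by Ago2 in the whole neocortex. The comparison used 6 of the 19 libraries of the series, 3 of Gad2 cells and 3 of whole neocortex, and all 528 miRNA names of the deposited table, of which 522 could be tested. Gad2 libraries came from mice of C57BL/6 and 129 background at postnatal day 56. Each of them held neocortex of 4 pooled tissues, and tagged Ago2 was captured with anti-myc. Neocortex libraries came from C57BL/6 and BALB/c mice at postnatal day 56. Each of them held neocortex of 1 tissue, and Ago2 of all cells was captured with anti-Ago2. Antibody, strain background and pooling changed together with the group, so their part in any difference cannot be told apart from that of the cells. All p-values reflect the spread between libraries, since separate animals are not stated. Inserts of 19 to 24 nt were sequenced.

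A miRNA is a short RNA cut from a hairpin precursor and loaded into an Argonaute protein such as Ago2. There it pairs with messenger RNAs, mostly through its seed (bases 2 to 8), and lowers their translation or stability. Gad2 encodes an enzyme that makes GABA, the main inhibitory transmitter of the brain, and is used to mark GABAergic neurons. These cells are a minority of neocortical neurons and include the classes marked by parvalbumin (PV) and somatostatin (SST), whereas Camk2a marks excitatory neurons. Whole neocortex adds excitatory neurons, glia, vessels and blood. The table holds miRNAs only, so the Gad2 label could not be checked against messenger RNAs of GABAergic neurons. miRNAs of other cell types are given further on. They cannot test the label, since such miRNAs can be low in other neurons too. Levels are reads per 1000000 miRNA reads (RPM) and are shares of a pool. From such shares, fewer cells of a type and less RNA per cell cannot be told apart.

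The sequences that the results turn on are shown in the 5′ to 3′ direction with the seed in capitals, from RefSeq (GRCm38.p6). The first group rose in Gad2 libraries. It holds the miRNA with the largest rise among abundant names, its seed mate, and a pair from the imprinted Dlk1-Dio3 domain.
miR-34a: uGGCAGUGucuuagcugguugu
miR-34b-5p: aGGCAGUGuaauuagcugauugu
miR-433: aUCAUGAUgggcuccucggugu
miR-134: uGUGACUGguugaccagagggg
The next group shares the seed of the miR-30 family, and the 4 names shown rose.
miR-384-5p: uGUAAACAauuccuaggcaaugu
miR-30e: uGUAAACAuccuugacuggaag
miR-30a: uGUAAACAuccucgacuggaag
miR-30c: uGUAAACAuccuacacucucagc
The miRNAs below fell. miR-221 and miR-222 share a seed and differ after it. The seeds of miR-128 and miR-27b overlap when shifted by 1 base.
miR-128: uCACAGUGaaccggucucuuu
miR-27b: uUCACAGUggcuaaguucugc
miR-221: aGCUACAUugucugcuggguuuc
miR-222: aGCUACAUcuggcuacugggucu
miR-137: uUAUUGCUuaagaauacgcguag
The last groups are seed mates that did not change alike. Of the miR-15 names shown only miR-15b was called, and of the miR-181 names miR-181c was not.
miR-15b: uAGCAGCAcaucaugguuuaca
miR-15a: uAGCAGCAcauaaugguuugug
miR-16: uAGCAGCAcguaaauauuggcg
miR-181a: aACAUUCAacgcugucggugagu
miR-181b: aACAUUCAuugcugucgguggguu
miR-181c: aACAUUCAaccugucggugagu
In GRCm38.p6, miR-34a lies at chr4:150068473-150068494 on the plus strand, outside any same-strand host gene of GENCODE M21. miR-128 has 2 loci. One is in an intron of R3hdm1 (chr1:128202404-128202424, plus strand) and the other in an intron of Arpp21 (chr9:112118644-112118664, minus strand). miR-221 (chrX:19146307-19146329) and miR-222 (chrX:19146901-19146923) lie on the minus strand with hairpins 599 bases apart. miR-15b and 1 copy of miR-16 lie in an intron of Smc4, with hairpins 130 bases apart on chromosome 3.

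The miRNA pool of Gad2 cells differed widely from that of the tissue. In limma, 235 of 522 miRNAs (45.0%) had an adjusted p under 0.05, with 108 rises (20.7%) and 127 falls (24.3%) in Gad2 libraries. Of these, 179 differed by 2-fold or more, 73 higher and 106 lower. The 2 groups did not overlap for 278 of 522 miRNAs (53.3%), and for 220 of those called. The largest changes were falls, as the plot of change against mean level shows. The median log2 change of all miRNAs was -0.09. With values divided by TMM factors it was 0.03, and the share of higher calls moved from 46.0% to 53.7%. The split between rises and falls therefore depended on scaling, and the direction of changes close to these medians does too. Reads ran from 6983992 to 14249087 in Gad2 libraries and from 2149027 to 10798553 in Neocortex libraries, and 3 reads stood for 0.211 to 0.430 and 0.278 to 1.40 RPM. Among the 73 miRNAs whose mean reached 1000 RPM, 22 were higher and 23 lower, while under 10 RPM only 24.6% of 207 were called.

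**Figure D1:**
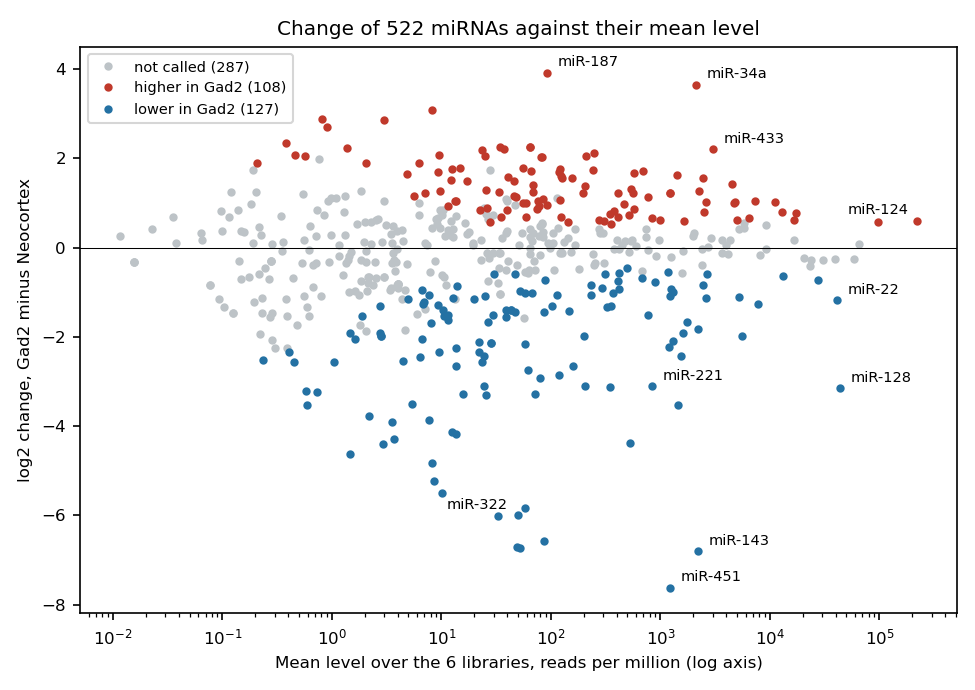
Mean level over the 6 libraries (x, RPM, log axis) against log2 change of Gad2 minus Neocortex (y) for 522 miRNAs, each a point coloured by its call. Called falls reach a log2 change of -7.62 for miR-451, while the highest rises are miR-187 at 3.91 and miR-34a at 3.65.

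The same few miRNAs dominated both pools. The 10 most abundant took 65.3% ± 2.57 of reads in Gad2 and 65.6% ± 2.57 in Neocortex libraries (SD, n = 3 each), and 8 names stood in both sets. miR-124, the main neuronal miRNA, which holds down genes of other cell types, took 26.5% ± 2.01 of Gad2 and 17.7% ± 3.74 of Neocortex reads. Every Gad2 library lay above every Neocortex library, and miR-124 rose 1.52-fold (limma adjusted p = 0.00366, but 0.0581 in a fit of the 2 groups alone). miR-29b, a miRNA of mature neurons, took 11.5% ± 0.777 against 7.84% ± 1.56 and rose 1.48-fold (adjusted p = 0.00705, but 0.055 in the fit of the 2 groups alone). miR-9, which acts in neural progenitors and neurons, held 6.72% ± 0.856 and 6.403% ± 0.647, with overlapping groups (log2 change 0.07, SE 0.14). Its partner from the other arm of the hairpin, miR-9*, fell 1.67-fold, from 33679, 32788 and 35706 RPM in the Neocortex libraries to 18048, 20691 and 22848 RPM in the Gad2 libraries. miR-22, another of the most abundant, fell 2.26-fold (adjusted p = 7.07e-06), with 24780.4, 20010.0 and 30783 RPM in the Gad2 libraries and 49363, 53478 and 66553 RPM in the Neocortex libraries. No library of the one group reached the range of the other for either miRNA. Of the other names among the 10 most abundant of either pool, miR-128 and miR-376a are given with their groups, and miR-29a, miR-26a, let-7c, let-7a and let-7f were not called, with log2 changes from -0.41 to -0.26.

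The miR-34 family, which is induced by p53 and acts on the cell cycle and on neuronal differentiation, had 4 of its 6 tested names higher and none lower (median log2 change 1.72). Over all miRNAs, 20.7% were called higher and 24.3% lower. miR-34a stood at 5238, 3423 and 3044 RPM in the Gad2 libraries and at 323, 183 and 466 RPM in the Neocortex libraries. The lowest Gad2 library was far above the highest Neocortex library. The rise was 12.5-fold (log2 change 3.65, SE 0.25, limma adjusted p = 3.64e-10). miR-34b-5p and miR-34c come from another hairpin pair and were scarcer. miR-34c had 63.3, 49.4 and 71.3 RPM against 10.2, 10.5 and 20.6 RPM, and miR-34b-5p had 23.2, 19.4 and 25.5 RPM against 6.98, 4.88 and 7.87 RPM. Both groups stayed apart, with rises of 4.63-fold and 3.46-fold. The other arm, miR-34a*, rose 3.13-fold at a level of 7.37 ± 1.32 RPM (adjusted p = 0.00993, and 0.0556 without Neocortex replicate 1). miR-34b and miR-34c also mark ciliated cells. A list of ependymal and choroid names, which holds them, had 2 of 6 names higher, miR-34c and miR-34b-5p, and 2 lower, miR-204 (16.4, 25.4 and 18.2 against 57.2, 50.3 and 67.6 RPM) and miR-204* (median log2 change 0.40). The summed level of the list was 108, 99.0 and 123 RPM in the Gad2 libraries and 107, 97.4 and 125 RPM in the Neocortex libraries, and the part of these cell types in the values of miR-34b-5p and miR-34c was not tested.

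**Figure D2:**
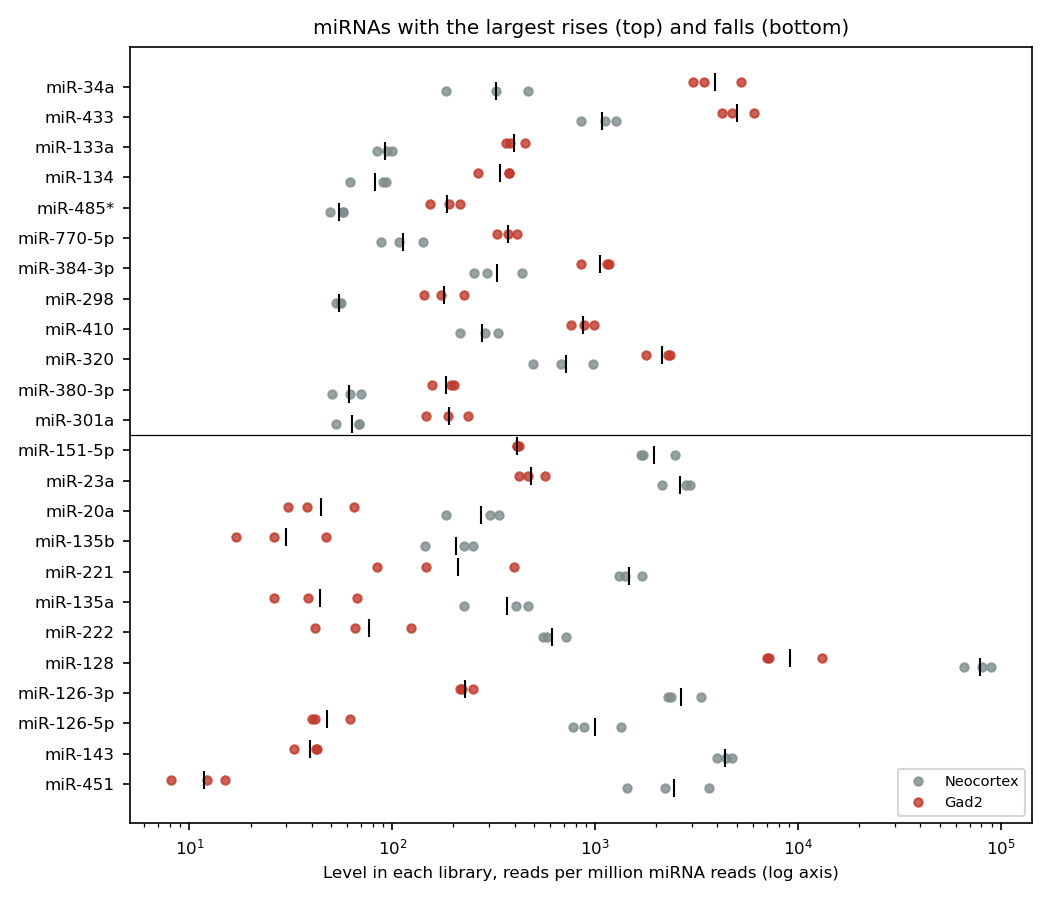
Level in each library (x, RPM, log axis) of the 12 miRNAs with the largest rises and the 12 with the largest falls among those chosen as called, without overlap between groups and with a mean of 100 RPM or more, with a black tick at each group mean (n = 3). The gap between groups is widest for miR-451 and miR-143.

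miRNAs of the imprinted Dlk1-Dio3 domain on chromosome 12, expressed from the maternal allele and abundant in neurons, rose in part. Of those near Meg3 and the transcript antisense to Rtl1, 11 of 27 were higher and 0 lower (median log2 change 0.53, against -0.09 for all miRNAs). Of the large distal cluster 28 of 66 were higher and 3 lower (median 0.65), and without Gad2 replicate 1 or with TMM-divided values the lower calls numbered 1. Of all miRNAs, 20.7% were called higher. The summed level of the distal cluster was 65560.5, 62508 and 73786 RPM in the Gad2 libraries and 36766, 42986 and 40834 RPM in the Neocortex libraries, with no overlap. A high sum was not particular to Gad2 libraries, as it was 59878 ± 6773 RPM in Camk2a libraries (n = 3). It was 44573 ± 4896 RPM in PV and 68269 ± 7989 RPM in SST libraries (n = 2 each).

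miR-433, which lies in the Rtl1 antisense transcript, led the domain with 6048, 4196 and 4742 RPM against 1122, 854 and 1266 RPM. This was a 4.63-fold rise (limma adjusted p = 6.24e-09). Its neighbour miR-127, with a hairpin 1131 bases away, was not called (log2 change 0.43, SE 0.18). miR-770-5p, made from the Meg3 transcript, had 411, 328 and 374 RPM against 107, 88.3 and 142.3 RPM and rose 3.34-fold. miR-341 had 1088, 868 and 353 RPM against 460.2, 196 and 248 RPM. Its Gad2 replicate 3 lay inside the Neocortex range, and the rise of 2.46-fold was lost in a fit of the 2 groups alone (adjusted p = 0.0894). miR-434-5p had 431, 386 and 430.3 against 218, 366 and 299 RPM. Its call (adjusted p = 0.0279) was lost in that fit and without any of Gad2 replicate 1, Gad2 replicate 3 or Neocortex replicate 1 (adjusted p from 0.062 to 0.169).

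In the distal cluster, the most abundant names rose modestly. miR-376a had 21589, 21106 and 22904 RPM against 13455, 14596 and 10871 RPM (1.70-fold), and miR-369-3p had 14991, 13382 and 16221 RPM against 5167, 8818 and 8523 RPM (2.03-fold). miR-300 rose 2.04-fold and miR-382 2.02-fold. None of these 4 overlapped between groups. The larger rises were in scarcer names. miR-134, which limits dendritic spine growth and responds to neuronal activity, had 377, 375 and 265 RPM against 93.1, 90.0 and 62.0 RPM (4.16-fold, adjusted p = 6.32e-07). miR-410 had 879, 757 and 981 against 215, 285 and 332 RPM (3.18-fold). miR-485* and miR-380-3p rose 3.40-fold and 3.04-fold, each with non-overlapping groups. The domain was not uniform. The 3 distal names that fell, named here after their values were seen, were miR-376c (402 ± 92.7 against 1125 ± 151 RPM), miR-541 (954 ± 234 against 1375 ± 163 RPM) and miR-494 (9.70 ± 1.60 against 17.996 ± 3.97 RPM).

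Some miRNAs with the miR-30 seed rose. Of 12 names of miR-30 and miR-384-5p, 4 were higher and 1, miR-30b*, lower (median log2 change 0.26), where 20.7% of all miRNAs were higher. In the fit of the 2 groups alone 2 were higher. The lower call was lost without any 1 of 5 libraries, the exception being Neocortex replicate 2. miR-384-5p, a brain miRNA, had 3884, 3179 and 3678 RPM against 1156, 742 and 2056 RPM and rose 2.95-fold (limma adjusted p = 1.00e-04). The other arm of its hairpin, miR-384-3p, rose 3.28-fold, from 254, 438 and 292 to 854, 1175 and 1142 RPM. miR-30e rose 2.05-fold (10053, 8498 and 10341 against 4751, 3039 and 7126 RPM), and miR-30c 2.31-fold (adjusted p = 0.00191, 0.0529 in the fit of the 2 groups alone). For miR-30a the lowest Gad2 library, 6894 RPM, lay below the highest Neocortex library, 7148 RPM. Its 1.59-fold rise was lost in that fit (adjusted p = 0.104) and without Gad2 replicate 1 (0.0575) or Neocortex replicate 2 (0.123). miR-30d and miR-30b, which share the seed, were not called (log2 changes 0.42 and -0.09).

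The miR-181 family, which is known for its part in lymphocyte signalling and is also made in neurons, had called names in both directions. Of its 10 names 3 were higher, 2 lower and 5 not called, where 20.7% of all miRNAs were higher and 24.3% lower. Its guide strands miR-181a, miR-181b and miR-181d were higher, and the star strands miR-181a-1* and miR-181a-2* lower, in a list of 10 names with a median of -0.07, which ran from -0.13 to 0.29 over the other settings and was highest when only names with a mean of 10 RPM or more were tested. miR-181b stood at 6764, 6347 and 6551 RPM against 2420.2, 2383 and 2553 RPM. The groups were far apart relative to their spread, and the rise was 2.67-fold (limma adjusted p = 7.16e-08). miR-181a had 20423, 17306 and 22154 RPM against 10656, 11775 and 17692 RPM. Gad2 replicate 2 lay below the highest Neocortex library, and the 1.52-fold rise was lost without Neocortex replicate 1 (adjusted p = 0.0662) and in the fit of the 2 groups alone (0.0828). miR-181d rose 1.76-fold. miR-181c was not called (2358 ± 358 against 2425 ± 548 RPM, log2 change -0.03, SE 0.20).

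Several rises lay outside these families. miR-320, which is cut without Drosha, had 2335, 1774 and 2276 RPM against 976, 493 and 678 RPM (3.07-fold, limma adjusted p = 1.43e-05). miR-298 had 225, 143.6 and 173 RPM against 55.4, 55.9 and 52.6 RPM (3.24-fold), and miR-301a 146.1, 189 and 236 against 53.0, 68.8 and 68.6 RPM (2.96-fold). All 3 had non-overlapping groups. miR-187, with a mean of 92.0 RPM over the 6 libraries, lay just below the level required for naming and is given because its rise exceeded that of miR-34a. It had 205, 171 and 140.3 RPM against 9.77, 7.56 and 18.9 RPM, a 15.1-fold rise (adjusted p = 6.63e-07), and its other arm miR-187* rose 8.43-fold.

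miR-1 and miR-133, best known as miRNAs of heart and skeletal muscle, were higher as well, with 4 of 5 names called. Among all miRNAs 20.7% were called higher. miR-133a had 364, 448 and 382 RPM against 99.1, 83.7 and 94.1 RPM and rose 4.30-fold (limma adjusted p = 3.38e-09). miR-1 had 617, 513 and 569 RPM against 306, 141 and 329 RPM and rose 2.33-fold. miR-133b rose 4.78-fold at 56.8 ± 8.95 RPM. miR-133a and miR-133b are near-identical in sequence, and the division of reads they share was not given in the sources used here. miR-133b* had 0 reads in all 6 libraries.

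Neuronal miRNAs moved both ways. Of 31 names of a neuronal list, 11 were lower, 6 were higher and 14 were not called (median log2 change -0.39), where 24.3% of all miRNAs were lower and 20.7% higher. miR-128, which restrains neuronal excitability, was among the most abundant miRNAs of Neocortex libraries, at 80894, 89151 and 65403 RPM, and stood at 7018, 7191 and 13159 RPM in Gad2 libraries. The highest Gad2 library, replicate 3, was still well below every Neocortex library. The fall was 8.92-fold (log2 change -3.16, SE 0.19, limma adjusted p = 7.68e-11). miR-137, tied to synaptic genes, fell 3.93-fold, from 12291, 6888 and 7204 RPM to 1958, 1711 and 2993 RPM. miR-135a fell 8.60-fold (26.0, 38.3 and 67.3 against 225, 466 and 409 RPM) and miR-135b 7.27-fold. The 6 neuronal names that rose, of which 3 are given after their values were seen, included miR-149 (1711 ± 287 against 748 ± 188 RPM), miR-7a (299 ± 106 against 111 ± 21.9 RPM) and miR-7b (98.9 ± 15.6 against 38.0 ± 9.30 RPM).

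Of 7 names tied to neuronal activity, 2 fell and miR-134 rose (median log2 change 0.26, or 0 with names at 0 set to a floor of 3 reads), and a second name was higher without Neocortex replicate 3, with TMM-divided values, in edgeR and in DESeq2. A list this small has shares close to the 24.3% lower and 20.7% higher of all miRNAs. miR-132* had 373, 450.5 and 652 RPM against 1434, 2338 and 2503 RPM and fell 4.25-fold (limma adjusted p = 8.91e-07). miR-132, the other arm of the same hairpin and a target of CREB, had 188, 172 and 256 RPM against 386, 362 and 399.6 RPM and fell 1.89-fold. It was the scarcer arm here, with 29.8% of the reads of both arms in Gad2 and 16.1% in Neocortex libraries. No Gad2 library reached the Neocortex range for either arm. miR-212-3p and miR-212-5p, from a hairpin 294 bases away that is transcribed with miR-132, were not called (log2 changes 0.26 and -0.50).

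miR-221 and miR-222, which act on cell cycle inhibitors and Kit, had all 4 arms lower. miR-221 had 147, 83.6 and 399.9 RPM against 1396, 1309 and 1706 RPM, and miR-222 had 65.8, 41.7 and 123 RPM against 551, 580.0 and 715 RPM. Gad2 replicate 3 was the highest Gad2 library for both, as it was for miR-128, miR-135a, miR-135b and miR-92b. The part of that library in these values was measured by leaving it out. The fall of miR-221 was 8.59-fold with it (limma adjusted p = 8.30e-07) and 13.2-fold without it. For miR-222 the fall was 8.77-fold (adjusted p = 4.33e-08).

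Among miRNAs of the miR-17-92 cluster and its paralogs, which promote growth and proliferation, 11 of 18 were lower and 0 higher (median log2 change -1.79, or -1.56 with names at 0 set to a floor of 3 reads). The share called lower over all miRNAs was 24.3%. miR-20a had 38.0, 30.8 and 64.6 RPM against 304, 184 and 336 RPM and fell 6.28-fold. miR-92b had 13.1, 11.6 and 39.9 against 150.3, 136 and 130.2 RPM and fell 7.56-fold, and miR-25 fell 3.17-fold. miR-106b fell 1.499-fold, but its call was lost in both TMM alternatives and without any of 4 single libraries, namely Gad2 replicates 1 and 2 and Neocortex replicates 1 and 2 (adjusted p from 0.053 to 0.161). miR-93, the most abundant name of the list, was not called, at 410.3 ± 83.3 against 426 ± 116 RPM.

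In the miR-15 group 5 of 12 tested names were lower and 0 higher (median log2 change -0.76), where 24.3% of all miRNAs were lower. miR-15b had 12.2, 19.6 and 16.5 RPM against 84.7, 143.2 and 96.6 RPM and fell 6.64-fold (limma adjusted p = 5.53e-07). miR-16, of which 1 of 2 copies lies beside miR-15b, was not called, at 4049.9 ± 717 against 3884 ± 621 RPM (log2 change 0.06, SE 0.22). miR-15a was not called (log2 change -0.52). miR-497 fell 1.78-fold. miR-322 had 0.983, 4.72 and 0.573 RPM against 81.9, 98.6 and 114 RPM. The fall was 64.0-fold, and it was 114-fold without Gad2 replicate 2 and 42.6-fold without Gad2 replicate 3. miR-151-5p, encoded in another family, fell 4.66-fold (409.9, 410.4 and 421 against 1719, 1688 and 2462 RPM), and its other arm miR-151-3p fell 4.45-fold. The list of miR-28, miR-151 and miR-708 had 3 of 6 names lower, where 24.3% of all miRNAs were lower. Over the other settings the number lower ran from 2 to 4. The remaining lower name, miR-708*, had overlapping groups and was lost with TMM-divided values (limma adjusted p = 0.0575) and in edgeR (0.0545).

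The largest falls were among miRNAs of other cell types. All 3 vascular names fell (median log2 change -4.37), where 24.3% of all miRNAs were called lower. miR-143, of smooth muscle, stood at 42.2, 42.8 and 32.6 RPM in Gad2 libraries and 4428, 4694 and 3984 RPM in Neocortex libraries, a 112-fold fall (limma adjusted p = 8.46e-18). miR-126-3p and miR-126-5p, the arms of an endothelial hairpin in the gene Egfl7, fell 11.5-fold and 20.7-fold. The summed vascular level was 298, 354 and 295 RPM in Gad2 and 8059, 7841 and 8178 RPM in Neocortex libraries, so a measurable amount remained in each Gad2 library.

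miR-451, of red blood cells, had 8.07, 12.3 and 15.0 RPM against 1432, 2208 and 3652 RPM, a 196-fold fall (limma adjusted p = 3.10e-14). miR-144, from a hairpin 165 bases away, fell from 104 ± 30.4 to 0.905 ± 0.360 RPM. In the red blood cell list of 7 names, 3 were lower and 2 higher, where 24.3% of all miRNAs were lower and 20.7% higher. The 2 higher names, miR-486 (116, 153 and 57.3 against 24.2, 19.5 and 20.003 RPM) and miR-3107, are near-identical. The division of reads they share was not given in the sources used here, so they may not be 2 separate measurements. Of 9 tested names of microglia and leukocytes 5 were lower and 0 higher (median -3.27). miR-150, of lymphocytes, had 1.90, 3.37 and 0.716 RPM against 162, 205 and 147 RPM, and miR-146a 12.001, 16.2 and 12.2 RPM against 129.8, 115 and 145.2 RPM. miR-142-5p, of blood-derived cells and microglia, had 0.351, 3.10 and 0.430 RPM against 83.8, 107 and 96.2 RPM, and miR-142-3p had 0 reads in Gad2 replicate 3. miR-342-3p, at 835 ± 222 against 627 ± 189 RPM, was not called and held most of the summed level of this list, which overlapped between groups (1015, 988 and 616 against 1238, 915 and 1071 RPM).

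Of 5 oligodendrocyte names 4 were lower and 0 higher (median -1.92), where 24.3% of all miRNAs were lower. miR-338-3p, from an intron of Aatk, had 688, 677 and 621 RPM against 3139, 1934 and 2577 RPM (3.78-fold lower, limma adjusted p = 1.24e-08). miR-219-3p, which promotes oligodendrocyte maturation, had 1.97, 2.16 and 1.57 RPM against 123, 85.4 and 137 RPM. Of 13 names of an astrocyte list 8 were lower and 0 higher (median -1.66, or -1.14 with names at 0 set to the floor). miR-23a fell 5.38-fold (423, 466 and 564 against 2126, 2786 and 2926 RPM), miR-23b 3.16-fold, miR-27b 2.201-fold and miR-21 1.91-fold (adjusted p = 0.00388). miR-24, which is encoded within 724 bases of the hairpins of miR-23b and miR-27b and also beside miR-27a, was not called, at 2683 ± 405 against 2754 ± 876 RPM. The astrocyte list also holds miRNAs found in neurons, and its summed level was 6853, 6633 and 6686 RPM in Gad2 libraries against 15144, 11672 and 14497 RPM. In Camk2a libraries, of excitatory neurons, the sum was 19172 ± 2326 RPM, above the Neocortex mean of 13771 ± 1846 RPM. The part of astrocytes in the falls of this list was not tested. Nor was the part of these cell types in the falls of other miRNAs.

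**Figure D3:**
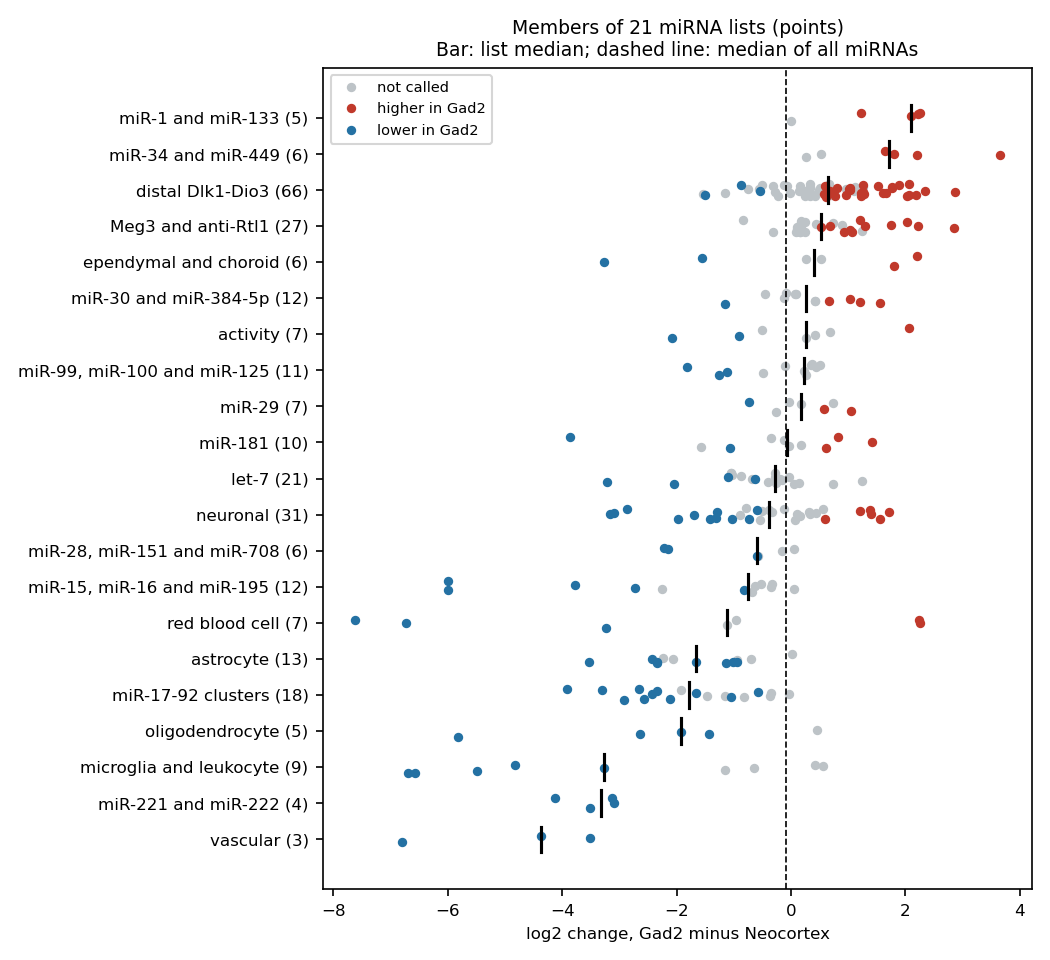
log2 change of Gad2 minus Neocortex (x) of the members of 21 lists (y, tested members in brackets), with a bar at the list median and a dashed line at the median of all miRNAs, -0.09. Lists of vascular, leukocyte and oligodendrocyte miRNAs lie to the left, and the miR-34 family and both Dlk1-Dio3 lists have their medians to the right.

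Lists of other families that hold abundant names had call shares near or under those of all miRNAs, of which 20.7% were higher and 24.3% lower. Of 21 let-7 names, a family of differentiation, 4 were lower and 0 higher (median log2 change -0.28). let-7i had 3227, 2542 and 4260.5 RPM against 6693, 6304 and 8257 RPM and fell 2.15-fold (limma adjusted p = 2.62e-05). let-7b fell 1.55-fold, a call lost with TMM-divided values (adjusted p = 0.0849), in the fit of the 2 groups alone (0.0766) and without Gad2 replicate 2 (0.055) or Neocortex replicate 1 (0.0709). In the miR-29 family 2 of 7 names were higher, miR-29b and miR-29b-2*, and 1, miR-29a*, was lower by 1.67-fold. In the list of miR-99, miR-100 and miR-125, 3 of 11 names were lower and 0 higher, while 2 were higher with TMM-divided values and in edgeR and 1 in DESeq2. miR-100 had 963, 1037 and 930.0 RPM against 3749, 3641 and 3034 RPM (3.55-fold, adjusted p = 4.52e-10), and miR-99a fell 2.39-fold (4593, 4787 and 4336 against 11806, 12188 and 9074 RPM). Groups did not overlap for either. The fall of miR-100* (7.97 ± 2.01 against 17.6 ± 5.31 RPM, adjusted p = 0.0195) was lost without Gad2 replicate 1 (0.0988), Neocortex replicate 2 (0.0534) or Neocortex replicate 3 (0.0914). The hairpin of miR-99a lies 721 bases from a let-7c hairpin, and let-7c was not called. miR-125b-5p, encoded in the same clusters, was not called (log2 change 0.51, SE 0.25).

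Sequences were matched and used for 273 names, which held 69.5% to 82.3% of the reads of the 6 libraries and formed 222 seeds. Of these seed totals 123 (55.4%) were called, 67 higher (30.2%) and 56 lower (25.2%). The 5 highest and 5 lowest among abundant seeds were mostly single names given above. For the seed GGCAGUG, miR-34a and miR-34b-5p together rose 12.3-fold. For GCUACAU, miR-221 and miR-222 together had 213, 125 and 523 RPM against 1947, 1889 and 2421 RPM and fell 8.61-fold (limma adjusted p = 2.56e-07). The total of the seed ACAUUCA, which joins miR-181a to miR-181d, was 29876, 26154 and 32026 RPM against 15543, 16437 and 23597 RPM (log2 change 0.68, adjusted p = 0.00208). The total of AGCAGCA, which joins the miR-15 group, was 4662, 6149 and 4378 RPM against 4539.7, 5861 and 5868 RPM (log2 change -0.10, adjusted p = 0.666), and miR-16 outweighs miR-15b in it. These 2 seeds were chosen after their members' values were seen. Of 31 seeds with 2 or more tested names, all names were called in 1 direction for 9, some but not all names were called for 14, and names were called in opposite directions for 0. Seed totals leave out all other names, such as miR-34c, miR-30b and miR-30d.

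The ratio of the minor to the major arm differed for 34 of 179 arm pairs (19.0%). The share of the minor arm was smaller in Gad2 libraries for 26 (14.5%) and larger for 8 (4.47%). A star name with a hairpin number, such as miR-7a-1*, miR-138-1* or miR-30c-2*, was set against a guide name that pools all its hairpins. Such a pair does not measure the balance of 1 hairpin, and miR-181a and miR-7a each served in more than 1 pair. The median log2 change of all arm ratios was -0.22. For miR-181a the minor arm of the second hairpin, miR-181a-2*, had 7, 7 and 10 reads in Gad2 libraries and 26, 65 and 163 in Neocortex libraries, although miR-181a itself was higher in Gad2 libraries (log2 change of the ratio -4.56, limma adjusted p = 3.75e-06). miR-181a is made from 2 hairpins, and their shares cannot be told apart from the guide. For miR-219, miR-219-3p counted as the minor arm by its mean level over all 19 libraries, though it was the larger arm in Neocortex libraries. It took 34.3% of the reads of both arms in Gad2 libraries (28, 16 and 11 reads). In Neocortex libraries it took 83.0% (264, 350 and 1475 reads, limma adjusted p = 5.01e-06). For miR-574, miR-574-3p took 8.16% against 44.1% (adjusted p = 0.00479). miR-486* took 1.41% against 11.7%. The call of miR-133b in this test (log2 change -3.24) has no reads of its minor arm behind it in these 6 libraries and follows from the level of its major arm alone.

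Among the larger shares, miR-135a-1* rose relative to miR-135a, from 5, 1 and 6 reads in Neocortex libraries to 61, 19 and 16 in Gad2 libraries, while miR-135a fell (log2 change of the ratio 4.96, limma adjusted p = 1.99e-04). miR-135a also has 2 hairpins. In the distal Dlk1-Dio3 cluster the minor arms miR-544-3p (47.8% against 22.4%), miR-412-3p (19.1% against 6.90%) and miR-543 (29.5% against 11.4%) took larger shares. The cluster was not uniform, as its minor arms miR-376b* and miR-369-5p, named here after their values were seen, took smaller shares. Their log2 changes of the ratio were -2.023 and -0.846 (limma adjusted p = 0.001276 and 0.01706). miR-99a* took 2.03% against 0.672% of the reads of its hairpin (adjusted p = 1.15e-04). The number of arm ratios called depended on single libraries. It was 19 without Gad2 replicate 1 and 21 without Neocortex replicate 2.

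Gad2 libraries were also set against Camk2a libraries, which were made with anti-myc too but from C57BL/6 and BALB/c mice and 1 tissue each (n = 3). Strain and pooling therefore cannot be told apart from cell class there. In limma 199 of 522 miRNAs (38.1%) were called, 112 higher (21.5%) and 87 lower (16.7%) in Gad2 libraries. Higher calls made up 56.3% of these, and 44.5% once values were divided by TMM factors. This comparison shares the Gad2 libraries with the main one, and Camk2a against Neocortex shares the Neocortex libraries, so values are given side by side. Camk2a against Neocortex had 234 of 522 miRNAs called (44.8%).

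miR-34a stood at 1034 ± 162 RPM in Camk2a libraries, between Neocortex and Gad2, and was 3.70-fold higher in Gad2 than in Camk2a libraries (limma adjusted p = 4.36e-06). miR-128 stood at 153461 ± 14821 RPM in Camk2a libraries, above Neocortex, and was 17.5-fold lower in Gad2 libraries (adjusted p = 2.54e-12). miR-221 was 15.0-fold and miR-222 10.3-fold lower in Gad2 than in Camk2a libraries. miR-384-5p was 5.64-fold and miR-181a 3.77-fold higher, with 655 ± 200.1 and 5311 ± 851 RPM in Camk2a libraries. miR-298 was 18.3-fold higher than in Camk2a libraries, where it stood at 9.86 ± 2.67 RPM. For miR-187 the difference was 34.6-fold, from 4.83 ± 0.577 RPM in Camk2a libraries.

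Other miRNAs that differed from tissue showed no call against Camk2a libraries. miR-410 (log2 difference of Gad2 minus Camk2a 0.20, SE 0.20), miR-380-3p (0.04, SE 0.21), miR-485* (-0.08, SE 0.26) and miR-376a (0.19, SE 0.19) of the distal cluster were among them. So were miR-451 (0.21, SE 0.29), miR-143 (-0.34, SE 0.17), miR-338-3p (0.01, SE 0.17) and miR-22 (-0.12, SE 0.17). A call that is missed does not show that the levels are equal. The endothelial miR-126-3p did differ and was 3.02-fold lower in Gad2 than in Camk2a libraries, with 689 ± 30.4 RPM in the latter.

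PV and SST libraries (C57BL/6 and 129, 4 pooled tissues, anti-myc, n = 2 each) show how 2 classes of GABAergic neuron compare with the Gad2 level, without a test against Gad2. Against Neocortex, limma called 254 of 522 miRNAs (48.7%) in PV and 274 (52.5%) in SST libraries. miR-34a had 11772 and 11981 RPM in PV and 1619.5 and 1475 RPM in SST libraries, on either side of the Gad2 range. miR-133a had 1429 and 2053 RPM in PV but 52.4 and 50.9 RPM in SST libraries, the latter below the Neocortex libraries. miR-187 and miR-298 had the opposite order, with 7.73 and 8.22 and 6.89 and 8.22 RPM in PV and 551 and 855 and 124 and 138 RPM in SST libraries. miR-128 was low in both, at 1778 and 1997 and 2144 and 2545 RPM, and below every Gad2 library. The same order held for miR-221, with 47.5 and 37.8 RPM in PV and 71.2 and 61.0 RPM in SST libraries. miR-384-5p had 3674 and 3661 RPM in PV and 4551 and 3128 RPM in SST libraries, close to the Gad2 libraries. miR-132 had 141 and 156 RPM in PV but 842 and 552 RPM in SST libraries, the latter above Gad2 and Neocortex.

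**Figure D4:**
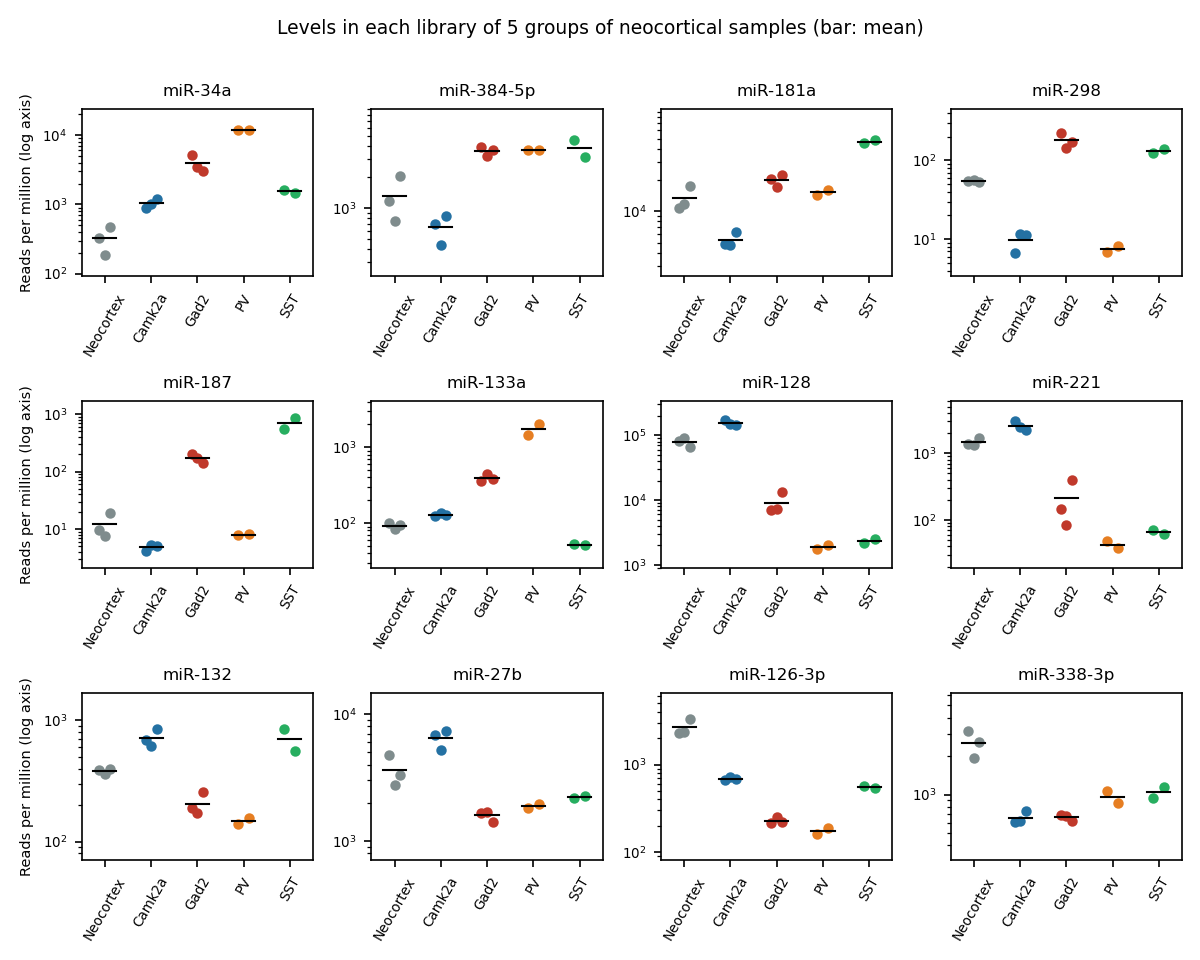
Level in each library (y, RPM, log axis that differs between panels) of 12 miRNAs in Neocortex, Camk2a, Gad2, PV and SST libraries (x), with a bar at the group mean (n = 3, 3, 3, 2 and 2). miR-128 and miR-221 are low in all 3 GABAergic groups, while miR-133a is high in PV and miR-187 in SST libraries.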

How the data were processed

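Small RNAs bound to Ago2 were sequenced by the authors. Per the submitters' processing notes, mapping was to mm9 by Bowtie (version not given in the sources used here). The deposited signal of 528 miRNA names is each library's read count scaled by the authors to a common total. Per the file headers it is per 1000000 reads, but every column adds up to 10000000, and RPM here is the deposited value divided by 10. In all 19 libraries 100% of values were whole multiples of 1 constant (within 0.02 reads), from which reads were recovered. Floors of 3 reads cover counting error only, because amplified reads with no molecular identifiers are not independent molecules. 120 rows without a name were left out.

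Samples were grouped by title. limma 3.58.1 (R 4.3.3) with a trend was run on log2(deposited value + 1) in 1 fit of 7 group means over 19 libraries. The fit kept 522 miRNAs that reached a value of 1 in 2 libraries or more, p was adjusted by Benjamini and Hochberg, and folds come from the fitted log2 change. Arm ratios used log2((minor + 0.5)/(major + 0.5)) of reads. An arm pair needed 20 reads over its arms in 2 libraries and a mean of 5 reads for each arm. Seed totals summed names matched to RefSeq, 90 by exact name and 183 by an arm set by hand. Other settings were edgeR 4.0.16, DESeq2 1.42.0, TMM factors, other pseudocounts and filters, a replicate block and leaving out each library.

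miRNAs were named if called, without overlap and with a mean over the 6 libraries of 100 RPM or more (the 12 highest and 12 lowest changes), if among the 10 most abundant of a group, or if among the 4 most abundant called members of a list. For arm ratios and seeds the 5 highest and 5 lowest were eligible. The comparison, the names and the 21 lists were chosen with earlier results of these data known. Of 6 sets of names with identical values in all libraries each name was counted.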

Additional observations from a re-analysis of the deposited data

Results flagged for a closer look

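For 9 of the miRNAs named, Gad2 and Camk2a libraries departed from Neocortex in opposite directions, both past the threshold. The difference between Gad2 and Camk2a passed it in the same limma fit, but it is the sum of these departures from the same Neocortex libraries, so its call follows from the choice of these miRNAs and is no further support. The difference is given as log2 of Gad2 minus Camk2a. It was -4.13 for miR-128 (log2 change against Neocortex -3.16 in Gad2 and 0.97 in Camk2a libraries), -2.005 for miR-27b (-1.14 and 0.87), -1.81 for miR-132 (-0.92 and 0.89) and -1.07 for miR-708* (-0.60 and 0.47). In the other direction it was 5.11 for miR-187 (3.91 and -1.20), 4.20 for miR-298 (1.70 and -2.50), 2.68 for miR-34b-5p (1.79 and -0.89), 2.50 for miR-384-5p (1.56 and -0.93) and 1.91 for miR-181a (0.61 and -1.31). The Gad2 call of miR-708* was lost in 6 settings (adjusted p from 0.0545 to 0.129) and that of miR-181a in 2 (0.0662 and 0.0828). Camk2a and Gad2 libraries differ in strain background and pooling, and the part of these in the difference cannot be told apart from that of cell class.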

How the results depend on the processing

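Over the alternatives run for Gad2 against Neocortex, 199 to 281 miRNAs were called against 235. The count of 199 came from the filter on a mean of at least 10 RPM, which left 315 names to test instead of 522. Of the 88 named called miRNAs, 74 stayed called in the same direction under every alternative that tested them. None of the 88 reversed. The other 14 lost their call in at least 1 alternative, most often in the fit of the 2 groups alone. edgeR on recovered reads called 281 (141 higher, 140 lower) and DESeq2 260 (123 higher, 137 lower). Leaving out 1 library at a time gave 208 to 235 calls, and for Gad2 against Camk2a 156 to 177 against 199. Medians of the Meg3 and distal Dlk1-Dio3 lists ran from 0.43 to 0.71 and from 0.58 to 0.79. Counts of arm ratios moved most. With 5 reads added to each arm 62 were called, 14 higher and 48 lower, against 34, 8 and 26. Leaving out 1 library at a time gave 19 to 40, with 5 to 11 higher and 14 to 29 lower. Seed totals called were 123, with 105 to 127 when 1 library was left out, 125 with TMM-divided values and 130 with a pseudocount of 10.

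Replicate numbers are shared by the groups, but the sources used here do not state whether they pair the libraries. Deviations of same-numbered Gad2 and Neocortex libraries correlated at 0.15, 0.15 and 0.04, and those of libraries with unlike numbers at -0.23 to 0.07. With a replicate block 224 miRNAs were called for Gad2 against Neocortex (100 higher, 124 lower), 161 for Gad2 against Camk2a and 32 arm ratios, while seed totals gave 73 higher and 69 lower calls against 67 and 56. Of the 88 named miRNAs, 7 lost their call with the block, namely miR-21 (adjusted p = 0.0764), miR-29b (0.0631), miR-29b-2* (0.0632), miR-30a (0.0602), miR-106b (0.119), miR-434-5p (0.114) and miR-708* (0.129). Not every library correlated best with its own number.

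The shallowest Neocortex library, replicate 1, held 2149027 reads, so levels under 1.40 RPM rest on fewer than 3 reads there. Reads can be shared between near-identical names, and host positions come from GRCm38 while reads were mapped to mm9.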

Other observations

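Among matched names with a mean of at least 100 RPM, the median GC content was 47.8% for 45 higher, 45.5% for 37 lower and 45.5% for 55 names not called. The mature miRNA began with U for 20, 16 and 29 of them and with A for 15, 17 and 14. None of these differences was tested.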
